A study of Arabidopsis thaliana with 18 samples.

Results

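The 48 genes described here encode proteins of the cytosolic ribosome of Arabidopsis thaliana (thale cress, the standard laboratory plant). They were taken by locus identifier from the 27628 genes of the deposited count table, 18 for the small (40S) subunit and 30 for the large (60S) subunit. All 48 had enough counts to be tested. RefSeq names 43 of them as ribosomal proteins by product, and the paralog letters used below follow the usual plant names. RNA was sequenced from leaves of 3 genotypes, a line labelled ml2 knockdown, a line labelled ml5 knockdown and the wild type (WT), each after 7 days of darkness and at day 0 of the dark treatment, with 3 libraries in each of the 6 groups. The lines are named for ML2 and ML5, which encode RNA-binding proteins of the MEI2-like family. The labels do not say how the lines were made, whether each goes back to a single plant, or how old the plants were. The columns of the table carry the marks CK and D, and no source defines them. CK was read as the control check that the extraction protocol mentions, and so as day 0, and D as dark, and so as day 7. Every result by day rests on this inference. The same protocol sets the control check against doxycycline, which no label of a sample names. No source calls the replicates separate plants, so p-values cover the spread between libraries and no more.

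A cytosolic ribosome joins a 40S subunit, which decodes the mRNA, to a 60S subunit, which forms peptide bonds, and it holds about 1 copy of nearly every ribosomal protein. In Arabidopsis each of these proteins is encoded by a family of paralogous genes, so the same position in the ribosome can be filled by the product of different loci. The TOR kinase, active when sugar is plentiful, promotes the production of ribosomes, and leaves kept in darkness lose sugar, break down their chloroplasts and enter senescence. The listed genes fall into 31 protein families. Of these, 16 families are represented by at least 2 paralogs, which form 18 pairs, and 15 by 1 gene.

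Libraries held 14914598 to 20417396 counts. The 48 genes together took 0.491% to 0.499% of the counts in ml5 libraries of day 7, 0.324% to 0.344% in ml2 libraries of day 7 and 0.36% to 0.37% in WT libraries of day 7. At day 0 the range was 0.375% to 0.389% in ml5, 0.354% to 0.4% in ml2 and 0.33% to 0.339% in WT. TMM scaling factors ran from 0.857 to 1.16. Library 1 of ml2 at day 0 stood apart from the other 2 of its group, with a chi-square per degree of freedom of 13.3 and 8.96, where counting error alone gives about 1, against 1.77 to 5.91 for the other pairs of replicates. In the ml2 line the ML2 transcript averaged 27.9 ± 1.69 CPM at day 7, against 253 ± 4.995 CPM in WT (SD, n = 3 each), and 6.35 ± 1.02 CPM at day 0, against 61.2 ± 2.26 CPM in WT. In the ml5 line the ML5 transcript averaged 0.686 ± 0.174 CPM at day 7, against 328 ± 14.5 CPM in WT, and 1.21 ± 0.328 CPM at day 0, against 208 ± 5.85 CPM in WT. Of the markers of leaf mesophyll, all 4 were present in every group. The markers of root and seed summed to at most 0.277 CPM in any library, and those of pollen to at most 0.918 CPM. The markers of flower summed to 1.46 to 4.28 CPM, so they were detected in every library.

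The stretches shown first are the 200 bases before the annotated start of 5 genes that the results below turn on, from the TAIR10.1 assembly, written 5' to 3' on the strand of the gene, which is the minus strand for all 5. RPS24B, RPS15aA and RPL12A were the members with the largest differences between ml5 and WT at day 7, and RPL24A and RPL24B are paralogs whose transcripts moved apart in darkness. Capitals mark 2 kinds of short element known from promoters of plant ribosomal protein genes. One is the telo box, searched as AAACCCTA, and the other is the site II element, searched as TGGGCC or TGGGCT, each on both strands, so that a site II element on the other strand reads GGCCCA or AGCCCA.
RPS24B, chr5:10070900-10071099: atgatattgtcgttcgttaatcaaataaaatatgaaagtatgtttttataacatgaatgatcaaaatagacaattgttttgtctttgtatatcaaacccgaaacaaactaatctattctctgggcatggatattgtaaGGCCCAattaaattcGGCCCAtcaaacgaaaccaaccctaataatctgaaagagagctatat
RPS15aA, chr1:2409792-2409991: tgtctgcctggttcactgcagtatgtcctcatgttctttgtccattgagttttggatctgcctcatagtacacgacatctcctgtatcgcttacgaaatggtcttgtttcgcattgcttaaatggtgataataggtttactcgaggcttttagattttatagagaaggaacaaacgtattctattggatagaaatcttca
RPL12A, chr2:15620157-15620356: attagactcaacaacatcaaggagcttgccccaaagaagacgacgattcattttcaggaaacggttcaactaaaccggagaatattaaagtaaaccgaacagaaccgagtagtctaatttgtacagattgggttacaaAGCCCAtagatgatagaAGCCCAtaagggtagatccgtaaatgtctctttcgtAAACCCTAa
RPL24A, chr2:15352014-15352213: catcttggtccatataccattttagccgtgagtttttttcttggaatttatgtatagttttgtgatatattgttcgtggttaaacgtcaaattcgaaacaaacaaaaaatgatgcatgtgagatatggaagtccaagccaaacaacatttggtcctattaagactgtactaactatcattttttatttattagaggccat
RPL24B, chr3:19662026-19662225: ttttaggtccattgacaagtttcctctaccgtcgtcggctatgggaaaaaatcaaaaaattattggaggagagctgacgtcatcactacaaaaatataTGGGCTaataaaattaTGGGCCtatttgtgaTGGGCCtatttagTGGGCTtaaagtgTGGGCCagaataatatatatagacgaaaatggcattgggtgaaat
The stretch of RPL24B holds 5 site II elements and that of RPL24A none. RPS24B shows 2 site II elements, RPL12A shows 2 and a telo box, and RPS15aA shows neither element in these bases. The wider window described next adds 1 site II element for RPL24A and for RPS15aA, and a telo box for RPL24B and for RPS24B.

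Over a wider window, from 250 bases before to 50 bases after the start, 25 of the 48 genes (52.1%) held a telo box, against 6.21% of 27412 promoters of the genome. A site II element was found in 34 (70.8%), against 21.7% of all promoters, and both elements in 18 (37.5%), against 2.2%. Neither was found in 7 (14.6%), against 74.3%. The site II element was found in 26 of 30 genes of the 60S subunit (86.7%) and in 8 of 18 genes of the 40S subunit (44.4%). The 25 genes with a telo box had a median log2 fold change of 0.43 between ml5 and WT at day 7, and the 23 without one a median of 0.18. For the site II element the same medians were 0.30 in the 34 genes with it and 0.25 in the 14 without it. For darkness in WT they were -0.33 with and -0.32 without the telo box, and -0.33 with and -0.31 without the site II element. For darkness in ml5 they were -0.13 with and -0.06 without the telo box, and -0.12 with and -0.09 without the site II element. The 7 genes with neither element had medians of 0.02 between ml5 and WT at day 7, -0.06 for darkness in WT and 0.04 for darkness in ml5, against 0.32, -0.47 and -0.13 in the other 41. Of these 7 genes, 6 were of the 40S subunit. RPSAB and RPS28A, with low counts and a rise in WT darkness, were among the 7. The medians with and without an element were not tested. A match of letters is a description and does not show that a factor binds there.

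Darkness in WT was examined first. Of the 48 genes, 34 had lower transcript levels at day 7 than at day 0, 6 had higher levels and 8 did not pass the test (edgeR quasi-likelihood test, adjusted p under 0.05, TMM scaling). Among all 19493 genes tested, 39.9% were called lower and 42% higher. The median log2 fold change was -0.32 for the 48 genes and 0.04 for all genes. In the 40S subunit 13 of 18 genes were lower and 2 higher, and in the 60S subunit 21 of 30 were lower and 4 higher. The libraries of day 7 lay all below those of day 0 for 36 of the 48 genes, all above them for 6, and overlapped for 6, while 40.5% of all genes tested lay below and 42.8% above.

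The scaling of libraries decided how many of these genes were called. With library sizes alone in place of TMM, the median of all genes for darkness in WT shifted by 0.38, to 0.42, the median of the 48 genes was then 0.06, and 18 of the 48 genes were called higher (54.1% of all genes) and 17 lower (30% of all genes). RPS6A, RPL3A, RPL9B and RPS5B were lower with TMM and higher with library sizes. The median of the 48 genes relative to that of all genes was -0.36 under both scalings. Both scalings gave the same direction to 17 lower genes and to 6 higher ones, RPSAB, RPS28A, RPL4A, RPL10A, RPL10C and RPP0C. Fewer cells of a type and less RNA per cell cannot be told apart in these bulk samples.

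Among 40S genes, RPSAA and RPSAB (AT3G04770, chr3:1309273-1311129, minus strand, 4 exons) are 2 paralogs for protein SA. This protein sits at the mRNA exit side of the subunit. RPSAB had 5.86, 5.09 and 6.39 CPM at day 7 and 3.61, 2.60 and 2.94 CPM at day 0 in WT. The groups did not overlap, and the log2 fold change was 0.91 ± 0.19 (adjusted p = 5.41e-05). Genes with the largest changes were named only among those without overlap. Their lack of overlap is therefore a condition of naming, not added support. RPSAA had 93.5, 103 and 102 CPM at day 7 and 158, 165 and 158 CPM at day 0, a change of -0.69 ± 0.05 (adjusted p = 3.09e-14). RPS28A (AT3G10090, chr3:3108789-3110094, minus strand, 2 exons), for a small protein of the mRNA exit channel, had 5.95, 6.59 and 8.81 CPM at day 7 and 4.002, 3.82 and 3.46 CPM at day 0, a log2 fold change of 0.91 ± 0.19 (adjusted p = 6.86e-05). Its level was low, with 50 to 61 counts in the WT libraries of day 0. The 40S genes with the largest falls were RPS15aA (-0.76 ± 0.06) and RPS18A (-0.76 ± 0.08), also known as POINTED FIRST LEAF1 for the leaf shape of its mutant.

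Among 60S genes, the largest rise was that of RPL10C, which RefSeq calls senescence associated gene 24 (AT1G66580, chr1:24839090-24840806, plus strand, 4 exons). The L10 protein is added late to the 60S subunit, near the site of peptide bond formation. RPL10C had 147, 149 and 143 CPM at day 7 and 54.8, 55.6 and 48.3 CPM at day 0 in WT, 2.77-fold higher (log2 1.47 ± 0.06, adjusted p = 2.79e-19). Its paralog RPL10A, whose product takes part in antiviral signalling in Arabidopsis, also rose, with 256, 266 and 267 CPM at day 7 and 162, 164 and 165 CPM at day 0 (log2 0.69 ± 0.05, adjusted p = 1.66e-14). The other higher 60S genes were RPP0C (0.72 ± 0.12) and RPL4A (0.17 ± 0.05), for a protein that lines the exit tunnel of the growing peptide.

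The falls in the 60S subunit were led by RPL30B (AT1G77940, chr1:29303864-29305411, minus strand, 5 exons), with 23.2, 22.1 and 20.8 CPM at day 7 and 44.02, 50.1 and 44.4 CPM at day 0 in WT. Each library of day 7 was below each of day 0, as the rule for naming required. The log2 fold change was -1.06 ± 0.09 (adjusted p = 5.31e-12). RPL24A (AT2G36620, chr2:15350268-15352013, minus strand, 5 exons), for a protein at the contact between the subunits, had 23.5, 24.3 and 20.98 CPM at day 7 and 47.4, 48.8 and 42.2 CPM at day 0, a change of -1.01 ± 0.08 (adjusted p = 3.45e-13). RPL12C, for a protein at the base of the stalk that binds elongation factors, had 7.67, 7.48 and 8.66 CPM at day 7 and 13.2, 14.4 and 13.4 CPM at day 0, a change of -0.78 ± 0.11 (adjusted p = 2.79e-07). All 3 were lower under both scalings.

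The 8 genes that did not pass the test in WT were RPS5A, RPS27B, RPS28B, RPL4D, RPL10B, RPL19B, RPL23aA and RPL24B. Their log2 fold changes ran from -0.12 for RPL19B to 0.07 for RPL10B with TMM, and with library sizes alone all 8 were called higher, by 0.26 to 0.45. RPS5A, a gene whose loss is lethal to the embryo, had 106, 102 and 106 CPM at day 7 and 107, 111 and 122 CPM at day 0 in WT, so that the groups lay close without overlap (-0.11 ± 0.06, adjusted p = 0.071 with TMM).

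Markers of several cell types were also lower after darkness. Of 6 markers of dividing cells, 5 could be tested, and all 5 were lower at day 7 than at day 0 in each genotype. Their summed level in WT was 2.52 to 3.36 CPM at day 7, against 10.96 to 13.4 CPM at day 0. Markers of leaf mesophyll summed to 354 to 371 CPM at day 7 in WT, against 31580.0 to 32129 CPM at day 0, and all 4 were lower. In WT all 3 markers of xylem, the 1 of phloem and the 1 tested of epidermis were lower as well. Of 2 tested markers of guard cells 1 was higher and 1 lower, and the same held for flower. The part of any of these in the changes of ribosomal protein genes was not tested.

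In the ml2 line, 39 genes were lower after 7 days of darkness, 4 higher and 5 did not pass the test, and among all genes 40.2% were lower and 39.6% higher. The median was -0.51. The libraries of day 7 lay all below those of day 0 for 37 of the 48 genes and all above them for 4, against 39.8% and 39.1% of all genes. In the 40S subunit 16 of 18 genes were lower and 1 higher, and in the 60S subunit 23 of 30 were lower and 3 higher. Library sizes alone gave 29 lower (33.4% of all genes) and 8 higher (48.3% of all genes), with a shift of 0.23 in the all-gene median, and RPL3A was then higher instead of lower. The 4 higher genes were RPSAB, RPL10A, RPL10C and RPP0C. RPL10C had 139, 137 and 147 CPM at day 7 and 66.3, 77.3 and 81.3 CPM at day 0 in ml2 (log2 0.91 ± 0.06, adjusted p = 2.12e-14). RPSAB had 4.59, 4.68 and 4.52 CPM at day 7 and 2.91, 2.51 and 1.78 CPM at day 0 (log2 0.94 ± 0.20, adjusted p = 5.9e-05). RPP0C had 14.3, 17.5 and 14.7 CPM at day 7 and 9.07, 12.6 and 10.3 CPM at day 0 (log2 0.54 ± 0.12, adjusted p = 0.000165).

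The largest fall in ml2 was that of RPL28A (AT2G19730), with 43.5, 38.2 and 41.3 CPM at day 7 and 77.3, 97.4 and 87.2 CPM at day 0 (log2 -1.09 ± 0.07, adjusted p = 2.38e-14). RPL12C followed with 6.59, 6.48 and 6.68 CPM at day 7 and 12.4, 13.4 and 15.8 CPM at day 0 (log2 -1.08 ± 0.11, adjusted p = 5.93e-10). RPL30B had 24.9, 18.8 and 21.02 CPM at day 7 and 42.1, 46.3 and 46.8 CPM at day 0 (log2 -1.06 ± 0.09, adjusted p = 4.67e-12). None of these 3 genes had overlapping groups, as the rule for naming required.

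In the ml5 line, 22 genes were lower after darkness, 13 higher and 13 did not pass the test, and among all genes 40.1% were lower and 39.7% higher. The median was -0.12. The libraries of day 7 lay all below those of day 0 for 21 genes (41% of all genes) and all above them for 12 (41% of all genes). In the 40S subunit 7 genes were lower and 6 higher, and in the 60S subunit 15 were lower and 7 higher. Library sizes alone shifted the all-gene median by 0.41 and gave 8 lower (28.8% of all genes) and 30 higher (54.1% of all genes), and 5 genes that were lower with TMM (RPL5B, RPL9C, RPL19A, RPS8A and RPS13A) were then higher. The median relative to all genes was -0.12 under both scalings. All 13 higher calls stood under both.

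The higher genes of ml5 include 5 of the 40S subunit besides RPSAB. They were RPS24B (0.50 ± 0.07), RPS6B (0.41 ± 0.05), RPS18C (0.32 ± 0.06), RPS5A (0.23 ± 0.06) and RPS28A (0.85 ± 0.19). RPS28A had 6.08, 6.75 and 7.14 CPM at day 7 and 4.01, 4.29 and 2.85 CPM at day 0 in ml5 (adjusted p = 0.000204). In the 60S subunit RPL10C had 143, 144 and 148 CPM at day 7 and 68.4, 64.3 and 61.4 CPM at day 0 (log2 1.17 ± 0.06, adjusted p = 7.74e-17). RPP0C had 19.7, 18.3 and 17.4 CPM at day 7 and 10.6, 11.98 and 9.55 CPM at day 0 (log2 0.78 ± 0.12, adjusted p = 8.81e-07). The largest falls in ml5 were those of RPL30B, with 26.05, 23.5 and 20.04 CPM at day 7 and 47.6, 42.6 and 47.5 CPM at day 0 (log2 -0.98 ± 0.09, adjusted p = 2.91e-11), of RPL24A (-0.92 ± 0.08, adjusted p = 1.81e-12) and of RPS18A (-0.75 ± 0.07, adjusted p = 4.15e-11). RPL24A had 25.8, 25.7 and 25.3 CPM at day 7 and 47.3, 50.96 and 47.4 CPM at day 0. RPS18A had 28.6, 29.3 and 32.8 CPM at day 7 and 51.9, 51.3 and 49.8 CPM at day 0. Apart from RPSAB, the groups of these genes did not overlap. The rule for naming required this of RPL10C, RPS28A, RPP0C, RPL30B, RPL24A and RPS18A.

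The 3 dark comparisons rest on separate libraries. With TMM, 21 genes were lower in all 3 of them and 4 were higher in all 3, namely RPSAB, RPL10A, RPL10C and RPP0C, against 32.7% and 32% of all genes. Of the 21, 7 were lower in all 3 comparisons under library sizes as well, namely RPSAA, RPS18A, RPL5A, RPL7B, RPL24A, RPL28A and RPL30B, against 24.3% of all genes. The 4 higher genes were higher in all 3 under both scalings, against 32% of all genes. For RPSAB in ml5, however, the TMM-scaled levels of the 2 days overlapped. Before scaling it had 99, 133 and 109 counts at day 7 and 39, 51 and 70 at day 0 there. RPL5A, also known as PIGGYBACK3, binds the 5S rRNA of the 60S subunit, and it had 89.7 ± 3.98 CPM at day 7 and 141 ± 2.46 CPM at day 0 in WT (SD, n = 3 each).

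**Figure D1:**
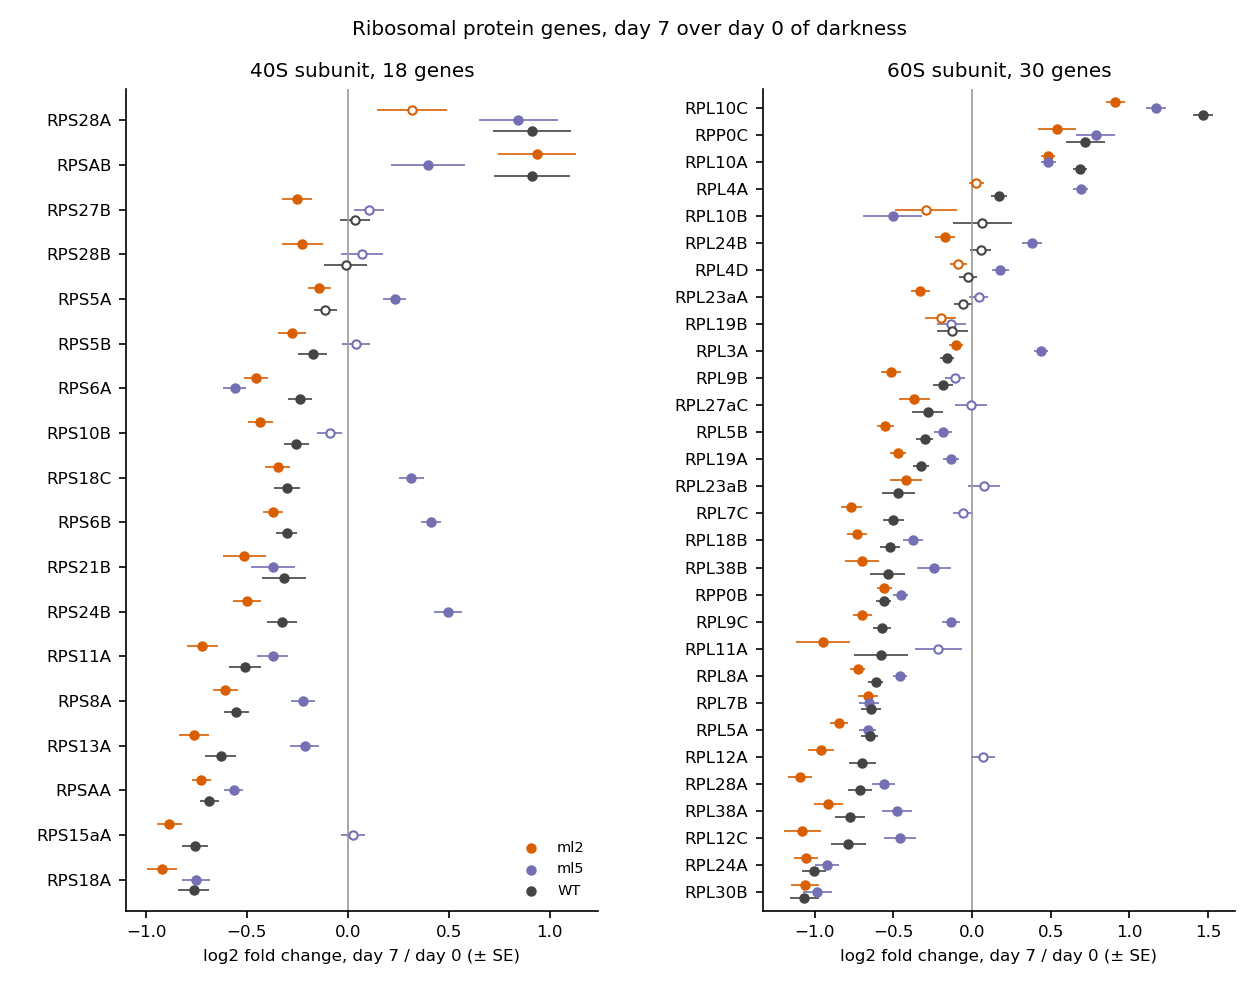
Log2 fold change of each of the 48 genes between day 7 and day 0 of darkness (x axis, bars ± SE, TMM scaling) in ml2, ml5 and WT, with 40S genes in the left panel and 60S genes in the right panel, filled where adjusted p was under 0.05. Most points lie left of 0, RPL10C, RPP0C and RPL10A lie right of 0 in each genotype, and ml5 lies right of WT and ml2 for RPS24B, RPS15aA and RPL12A.

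The paralogs of a family were compared within each library, which does not depend on scaling. The log2 ratio of the counts of 2 paralogs differed without overlap between day 7 and day 0 for 15 of 18 pairs in WT, 12 in ml2 and 15 in ml5. The share over other pairs of genes was not computed. Of all single genes tested, 42.8% lay above and 40.5% below without overlap in WT, 39.1% and 39.8% in ml2, and 41% and 41% in ml5. The counts of pairs are therefore not read as particular to paralogs. Calls went in opposite directions within the family of protein SA and within that of P0, which carries the stalk of the 60S subunit, in each of the 3 genotypes with TMM, and with library sizes alone in all but P0 in ml5, where RPP0B was then not called (-0.05). These ratios are given as descriptions, without a test.

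The log2 ratio of RPSAA to RPSAB was 3.99, 4.33 and 3.99 at day 7 and 5.44, 5.97 and 5.74 at day 0 in WT, a mean difference of -1.61. The difference was -1.68 in ml2 and -0.98 in ml5. Per transcript length, RPSAB made up 5.83% ± 0.724 of the family's summed level at day 7 and 1.99% ± 0.37 at day 0 in WT (SD, n = 3 each). It stayed the minor paralog in every group, with 33 to 133 counts a library.

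For P0, the log2 ratio of RPP0B to RPP0C was 3.06, 2.54 and 2.88 at day 7 and 4.01, 4.14 and 4.14 at day 0 in WT, a mean difference of -1.27, and the difference was -1.10 in ml2 and -1.24 in ml5. RPP0C had 16.2, 22.01 and 18.3 CPM at day 7 and 11.8, 11.2 and 11.2 CPM at day 0 in WT. RPP0B had 136, 128 and 135 CPM at day 7 and 191, 199 and 198 CPM at day 0. Per length RPP0C made up 13.4% ± 2.16 of the 2 at day 7 and 5.97% ± 0.292 at day 0 in WT.

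For L24, RPL24A fell in each genotype, whereas RPL24B, also known as SHORT VALVE1 and needed in Arabidopsis for translation of mRNAs with upstream reading frames, rose in ml5 (0.38 ± 0.06, adjusted p = 3.44e-06), fell in ml2 (-0.17 ± 0.06, adjusted p = 0.0172, not called with library sizes alone, 0.06) and did not pass the test in WT (0.06 ± 0.07, called higher with library sizes alone, 0.44). The log2 ratio of RPL24A to RPL24B was -1.83, -1.76 and -1.997 at day 7 and -0.71, -0.77 and -0.92 at day 0 in WT, a difference of -1.06, against -0.89 in ml2 and -1.30 in ml5. RPL24B had 109, 104 and 106 CPM at day 7 and 87.7, 80.4 and 77.2 CPM at day 0 in ml5. In the window of 250 bases before to 50 after the start, RPL24A held 1 site II element, and RPL24B held 5 and a telo box. Other pairs called in opposite directions in ml5 differed less. RPS18A and RPS18C each held 1 telo box and 0 site II elements. RPP0B held 2 site II elements, and RPP0C 2 and a telo box. RPSAA held a telo box and RPSAB neither element. RPS6A held 2 site II elements, and RPS6B 3 and a telo box. RPL10A and RPL10B held 2 site II elements each, and RPL10C 1 and a telo box.

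In ml5 opposite calls were also made for S6, S18 and L10. S6 is the protein phosphorylated by S6 kinase downstream of TOR. RPS6A (AT4G31700) had 72.7, 74.5 and 74.3 CPM at day 7 and 107, 112 and 107 CPM at day 0 in ml5 (log2 -0.56 ± 0.06, adjusted p = 3.11e-10). RPS6B (AT5G10360) had 225, 219 and 215 CPM at day 7 and 167, 161 and 166 CPM at day 0 (log2 0.41 ± 0.05, adjusted p = 9.44e-09). The log2 ratio of RPS6A to RPS6B in ml5 was -1.63, -1.55 and -1.53 at day 7 and -0.64, -0.53 and -0.62 at day 0, without overlap. In WT it was -0.98, -0.92 and -0.90 at day 7 and -0.97, -1.09 and -0.94 at day 0, and these overlapped.

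For S18, RPS18C had 139, 140.3 and 137 CPM at day 7 and 112, 117 and 106 CPM at day 0 in ml5 (log2 0.32 ± 0.06, adjusted p = 4.05e-05), while RPS18A fell. The log2 ratio of RPS18A to RPS18C changed by -1.07 in ml5, -0.58 in ml2 and -0.46 in WT, without overlap in any of them. For L10, RPL10B had 4.11, 2.70 and 2.74 CPM at day 7 and 4.78, 5.10 and 3.71 CPM at day 0 in ml5 (log2 -0.50 ± 0.19, adjusted p = 0.0158, not called with library sizes alone, -0.10), while RPL10A had 233, 231 and 234 CPM at day 7 and 174, 159 and 165 CPM at day 0 (log2 0.49 ± 0.05, adjusted p = 6.52e-11). RPL10B was the minor paralog, with 47 to 97 counts a library. Per length, RPL10C made up 34.6% ± 0.662 of the L10 family at day 7 and 23.4% ± 1.54 at day 0 in WT.

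The counting tool is not given in the sources used, and estimated counts with fractions, as arise when reads fit several genes, occurred for 13 of the 48 genes. In the L10 family, RPL10C had fractions in 9 libraries, RPL10A in 8 and RPL10B in 1, so its paralogs may share reads as well. RPL9B, RPL9C and RPL11A had fractions in all 18 libraries. The RPL9B and RPL9C values are therefore uncertain as single genes, and RPL11A may share reads with a paralog that is not among the 48.

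**Figure D2:**
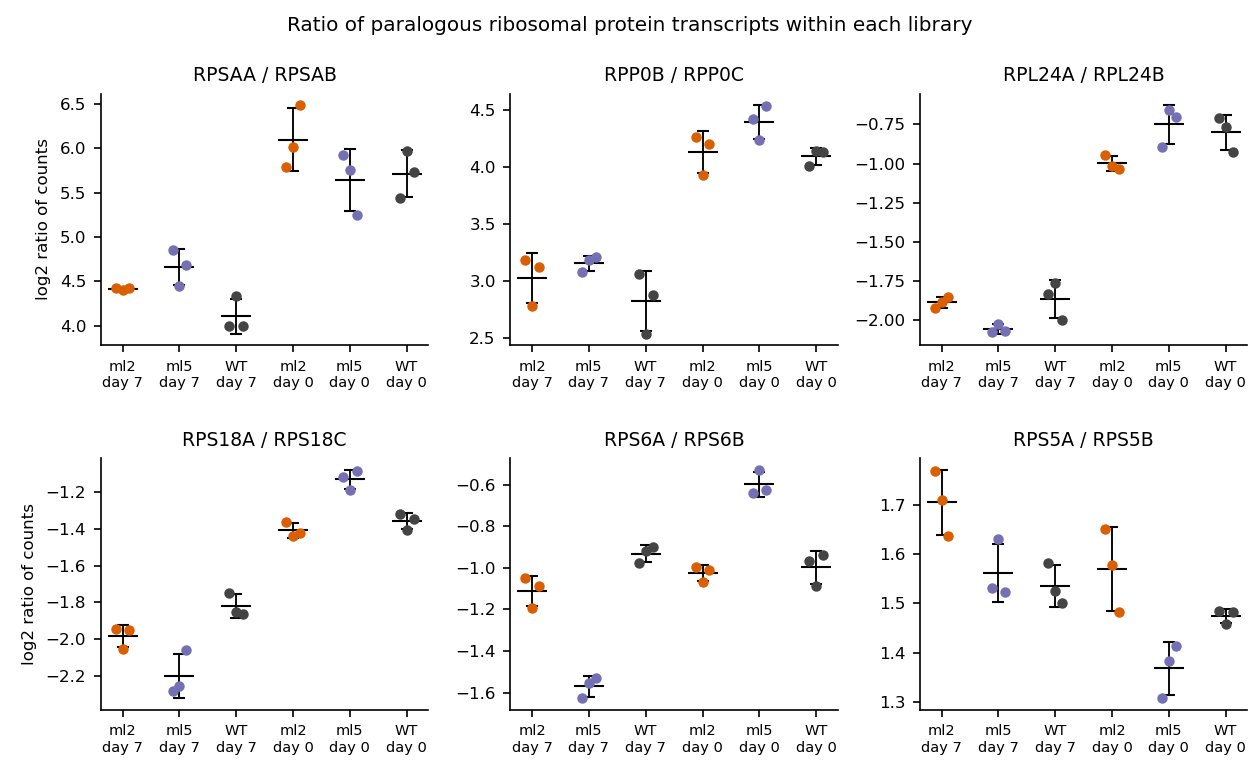
Log2 ratio of the counts of 2 paralogs in each library (points) for 6 pairs, with group mean and SD (bars), for ml2, ml5 and WT at day 7 and at day 0. The ratios of RPSAA to RPSAB, RPP0B to RPP0C, RPL24A to RPL24B and RPS18A to RPS18C are lower at day 7 in each genotype, and that of RPS6A to RPS6B stands lowest in ml5 at day 7.

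The next comparison set each line against WT on the same day. In ml5 at day 7, 33 of the 48 genes were higher than in WT, 1 was lower and 14 did not pass the test, while 19.3% of all genes were higher and 24% lower. The median log2 fold change was 0.30, against -0.03 for all genes. In the 40S subunit 14 of 18 genes were higher, and in the 60S subunit 19 of 30 were higher and 1 lower. At an unadjusted p under 0.05 the counts over both subunits were 34 higher and 1 lower, and DESeq2 gave 32 higher and 1 lower. The ml5 libraries lay all above the WT libraries for 36 genes and all below them for 1, against 25% and 30.6% of all genes. Library sizes alone gave 36 higher (22.1% of all genes) and 1 lower (20.9% of all genes).

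The 3 largest differences were above 2-fold. RPL12A (AT2G37190, chr2:15619206-15620156, minus strand, 1 exon), the paralog of RPL12C at the stalk base, had 59.3, 52.7 and 56.2 CPM in ml5 and 23.1, 25.8 and 23.2 CPM in WT at day 7, 2.33-fold higher (log2 1.22 ± 0.08, adjusted p = 7.71e-14). RPS15aA (AT1G07770, chr1:2407411-2409791, minus strand, 5 exons), for a protein of the 40S body, had 88.2, 90.3 and 87.1 CPM in ml5 and 42.3, 38.6 and 41.2 CPM in WT, 2.17-fold higher (log2 1.12 ± 0.06, adjusted p = 1.77e-15). RPS24B (AT5G28060, chr5:10069440-10070899, minus strand, 5 exons), also of the 40S subunit, had 114, 119.6 and 114 CPM in ml5 and 53.1, 55.6 and 57.97 CPM in WT, 2.09-fold higher (log2 1.06 ± 0.07, adjusted p = 1.12e-13). For each of them every ml5 library was above every WT library, as the rule for naming required.

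Other 40S genes that were higher in ml5 at day 7 were RPS18C (0.94 ± 0.06), RPS6B (0.94 ± 0.05), RPS18A (0.56 ± 0.07) and RPS8A (0.55 ± 0.06). In the 60S subunit they included RPL7C (1.01 ± 0.06), RPL11A (0.92 ± 0.16), RPL3A (0.79 ± 0.04), for a protein next to the peptidyl transferase centre, and RPL4A (0.68 ± 0.05). The 1 lower gene was RPL10A, with 233, 231 and 234 CPM in ml5 and 256, 266 and 267 CPM in WT (log2 -0.18 ± 0.05, adjusted p = 0.00167). RPL10C, the gene with the largest rise in WT, had 145 ± 2.53 CPM in ml5 and 146 ± 2.89 CPM in WT at day 7 (SD, n = 3 each), a log2 fold change of -0.01 ± 0.06 (adjusted p = 0.915).

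Markers of leaf mesophyll also differed at day 7, with a summed level of 816 to 825 CPM in ml5 and 354 to 371 CPM in WT, and 3 of 4 were called higher and 1 lower. Markers of dividing cells summed to 2.61 to 3.32 CPM in ml5 and 2.52 to 3.36 CPM in WT, and 1 of 5 tested was called higher. The part of either in the difference of ribosomal protein genes was not tested.

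**Figure D3:**
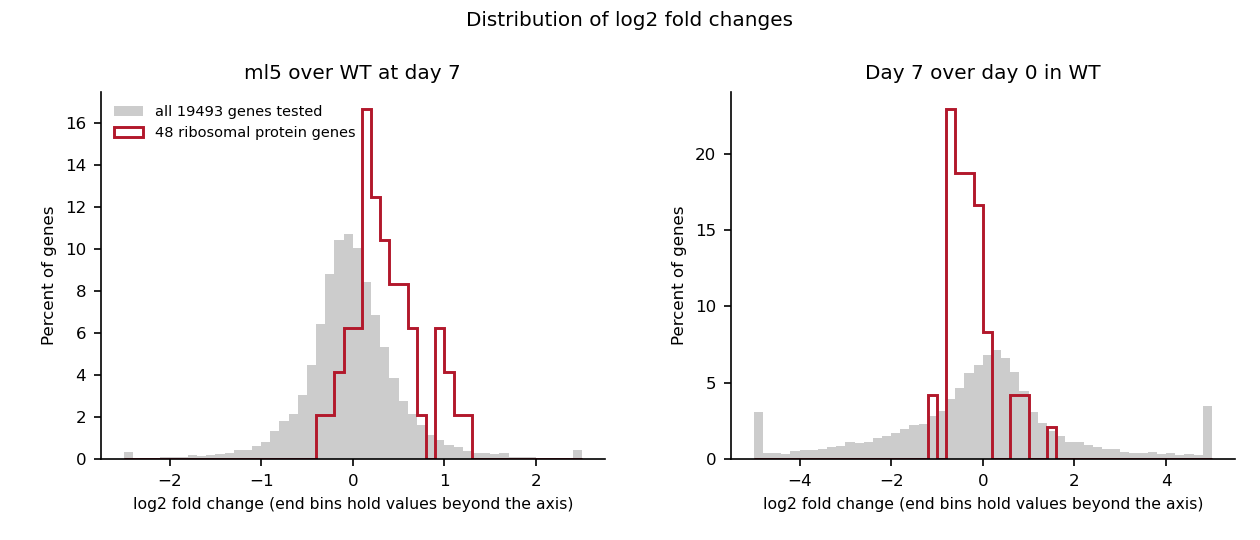
Share of genes (y axis, percent) by log2 fold change (x axis) for ml5 over WT at day 7 and for day 7 over day 0 in WT, with all 19493 tested genes in grey and the 48 ribosomal protein genes outlined in red. The 48 genes are shifted to the right of all genes in the left panel (median 0.30 against -0.03) and to the left in the right panel (median -0.32 against 0.04).

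At day 0, 24 of the 48 genes were higher in ml5 than in WT and 1 was lower, while 19.5% of all genes were higher and 18.8% lower. The ml5 libraries lay all above the WT libraries for 25 genes and all below them for 2, against 24.3% and 23.8% of all genes. The median was 0.18, and library sizes alone also gave 24 higher (20.5% of all genes) and 1 lower (17.6% of all genes). In the 40S subunit 10 of 18 genes were higher, and in the 60S subunit 14 of 30. Of the 4 markers of mesophyll, 3 were lower in ml5 than in WT at day 0, with sums of 29206 to 30511 CPM in ml5 and 31580.0 to 32129 CPM in WT, as were the 1 tested of epidermis and 1 of 2 of guard cells. Their part in the difference was not tested. RPS6A had 107, 112 and 107 CPM in ml5 and 68.4, 69.6 and 74.3 CPM in WT at day 0, 1.54-fold higher (log2 0.62 ± 0.06, adjusted p = 4.41e-10). RPL7C had 70.9, 68.6 and 66.1 CPM in ml5 and 45.5, 47.8 and 44.9 CPM in WT (log2 0.57 ± 0.06, adjusted p = 1.68e-08). RPL11A had 5.55, 6.40 and 6.04 CPM in ml5 and 4.26, 4.13 and 3.85 CPM in WT (log2 0.56 ± 0.16, adjusted p = 0.00686).

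The lower gene at day 0 was RPL27aC, with 12.5, 11.8 and 11.8 CPM in ml5 and 13.97, 16.3 and 16.5 CPM in WT (log2 -0.37 ± 0.10, adjusted p = 0.00441). In the first 3 genes every ml5 library was above every WT library, and in RPL27aC every one was below. The rule for naming required this as well. Of the 24 genes higher at day 0, 23 were also higher at day 7, in libraries of their own, as were 35.5% of all 3804 genes higher at day 0. RPL12A, RPS15aA and RPS24B were among them, with log2 fold changes of 0.46 ± 0.08, 0.34 ± 0.06 and 0.24 ± 0.07 at day 0.

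Whether the dark response of ml5 differed from that of WT was tested as the difference of the 2 log2 fold changes. It was positive and past the threshold for 16 genes and negative for 3, and among all genes 17.4% were called positive and 18.1% negative. The median difference was 0.15, and library sizes alone gave 17 positive (18.6% of all genes) and 3 negative (16.7% of all genes). RPS24B had a difference of 0.82 ± 0.10 (adjusted p = 8.18e-08), and was higher after darkness in ml5, with 114, 119.6 and 114 CPM at day 7 and 86.4, 81.8 and 77.9 CPM at day 0, and lower in WT by TMM (not called with library sizes alone, 0.05), with 53.1, 55.6 and 57.97 CPM at day 7 and 64.7, 68.99 and 75.1 CPM at day 0. RPS15aA had a difference of 0.78 ± 0.09 (adjusted p = 1.44e-08). With TMM its level in ml5 at day 0 was 89.1, 86.1 and 85.5 CPM, overlapping that of day 7. In WT it was 66.5, 70.4 and 69.7 CPM at day 0, above every library of day 7. RPL12A had a difference of 0.77 ± 0.11 (adjusted p = 2.28e-06), with 49.5, 55.8 and 55.05 CPM in ml5 and 40.3, 40.7 and 36.01 CPM in WT at day 0. With library sizes alone, RPS15aA and RPL12A were higher at day 7 than at day 0 in ml5 without overlap.

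The 3 negative differences were those of RPS6A (-0.32 ± 0.08, adjusted p = 0.00257), RPL10C (-0.30 ± 0.09, adjusted p = 0.00923) and RPL10A (-0.20 ± 0.07, adjusted p = 0.0164). RPS6A fell in both genotypes with TMM (in WT it was higher with library sizes alone, 0.14) and was higher in ml5 than in WT on both days, by 0.30 ± 0.06 at day 7 and 0.62 ± 0.06 at day 0. RPL10C rose in both, and at day 0 it was higher in ml5 than in WT (0.29 ± 0.07, adjusted p = 0.00091). The call for RPL10A ended with another scaling (RLE, -0.16) and without library 1 of ml5 at day 0 (-0.17).

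**Figure D4:**
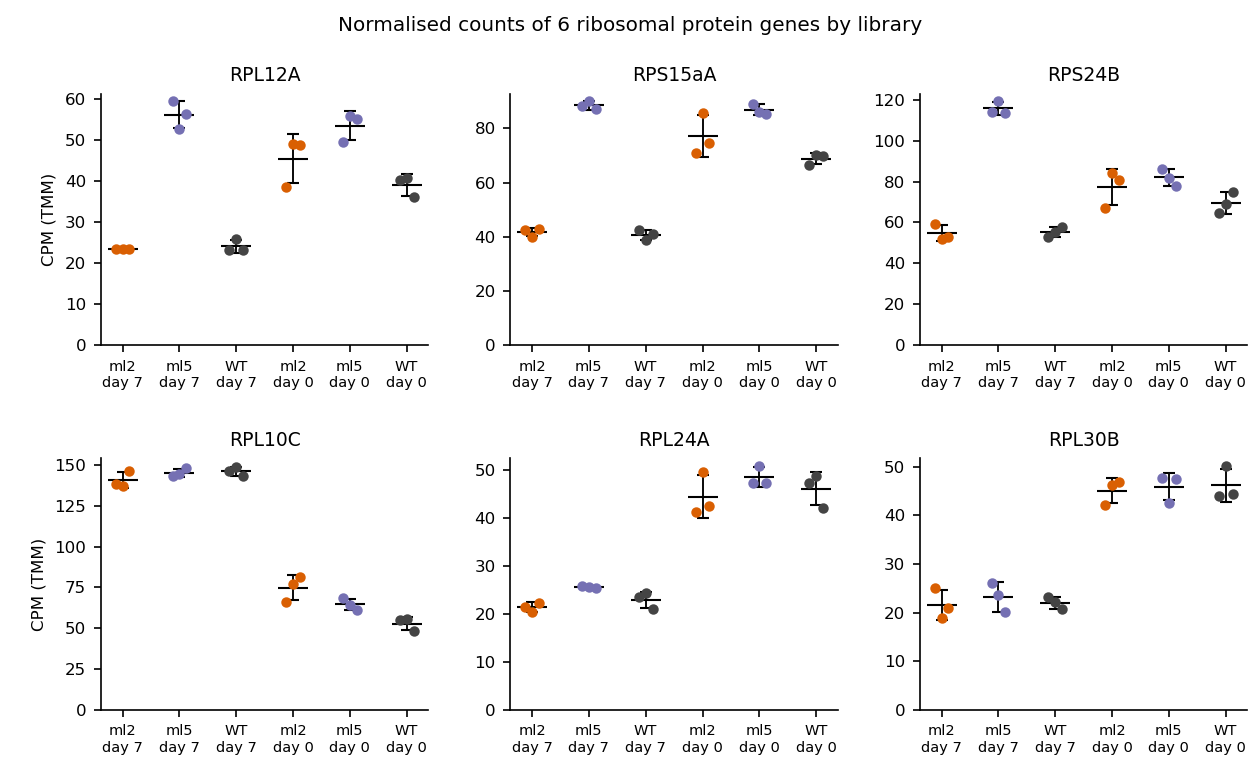
Normalised counts (CPM, TMM scaling, y axis from 0) of 6 genes in each library (points), with group mean and SD (bars), for ml2, ml5 and WT at day 7 and at day 0. RPL12A, RPS15aA and RPS24B are higher in ml5 than in WT at day 7, and of these 3 RPS24B alone is higher at day 7 than at day 0 in ml5 without overlap, RPL10C is higher at day 7 than at day 0 in each genotype, and RPL24A and RPL30B are lower at day 7.

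In ml2 at day 7, 10 of the 48 genes were lower than in WT and 1 was higher, and among all genes 12.4% were lower and 13.4% higher. Leaving out 1 library at a time gave 6 lower genes without library 2 of WT and 3 without library 3, and 4 without library 2 of ml2 and 6 without library 3. The median was -0.09, and the lower genes were 1 of the 40S and 9 of the 60S subunit. The ml2 libraries lay all below the WT libraries for 18 genes and all above them for 2, against 20.3% and 19.9% of all genes. Library sizes alone gave 17 lower (15.9% of all genes) and 0 higher (11.2% of all genes; 1 at an unadjusted p under 0.05 with TMM, and 1 in DESeq2). RPL10B had 2.99, 2.68 and 2.35 CPM in ml2 and 4.37, 4.07 and 3.57 CPM in WT (log2 -0.59 ± 0.19, adjusted p = 0.0196). RPL19B had 16.3, 16.4 and 17.7 CPM in ml2 and 20.3, 19.2 and 21.2 CPM in WT (log2 -0.27 ± 0.10, adjusted p = 0.0371). RPL4D had 83.3, 83.5 and 84.8 CPM in ml2 and 100.2, 97.1 and 101 CPM in WT (log2 -0.24 ± 0.06, adjusted p = 0.00107). The higher gene was RPS18C, with 83.4, 79.6 and 83.5 CPM in ml2 and 68.7, 72.7 and 76.3 CPM in WT (log2 0.18 ± 0.06, adjusted p = 0.0371). Its call ended with library sizes alone (0.14) and when single libraries were left out (0.14 without library 1 of WT, 0.18 without library 2 of WT, and 0.17 without library 1 or 3 of ml2). The calls for RPL10B and RPL19B also ended when single libraries were left out, RPL10B without library 1 of WT (-0.52), library 2 of WT (-0.58) or library 3 of ml2 (-0.50). RPL19B ended in DESeq2 (-0.26) and without library 1 (-0.26) or 3 (-0.23) of WT or library 1 or 2 of ml2 (-0.25 each).

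At day 0, 10 genes were higher in ml2 than in WT and 1 was lower, and among all genes 21.9% were higher and 22.6% lower. The libraries lay apart, ml2 above WT, for 6 genes (23.5% of all genes) and ml2 below WT for 1 (24.2% of all genes). The count depended on single libraries and on the scaling. Without library 1 of ml2 at day 0, 17 genes were higher, without library 2 of that group 4 were, and without library 1 or 3 of WT 6 and 5 were. Library sizes alone, which shifted the all-gene median by 0.11, gave 30 higher (31.2% of all genes) and 0 lower (15.5% of all genes; 1 lower at an unadjusted p under 0.05 with TMM, and 2 lower with DESeq2). The median of the 48 genes relative to all genes was 0.07 under both scalings. All 4 markers of mesophyll were lower in ml2 than in WT at day 0, with sums of 21794 to 23261 CPM in ml2 and 31580.0 to 32129 CPM in WT, as were both of guard cells and the 1 tested of epidermis. Of the 35 plastid ribosomal protein genes, 32 were lower and 1 higher, against 22.6% and 21.9% of all genes. The part of these in the counts of ribosomal protein genes was not tested. RPL10C had 66.3, 77.3 and 81.3 CPM in ml2 and 54.8, 55.6 and 48.3 CPM in WT (log2 0.50 ± 0.07, adjusted p = 1.97e-07). RPL28A had 77.3, 97.4 and 87.2 CPM in ml2 and 69.997, 74.6 and 71.6 CPM in WT (log2 0.28 ± 0.07, adjusted p = 0.00238). RPS28A had 5.04, 7.05 and 4.15 CPM in ml2 and 4.002, 3.82 and 3.46 CPM in WT (log2 0.53 ± 0.20, adjusted p = 0.033), and its call ended in DESeq2 (0.48) and without library 1, 2 or 3 of WT (0.58, 0.54 and 0.47) or library 2 of ml2 (0.29). The lower gene was RPL4D, with 95.9, 87.01 and 84.3 CPM in ml2 and 99.5, 105 and 98.6 CPM in WT (log2 -0.18 ± 0.06, adjusted p = 0.00891). Its call ended with library sizes alone (-0.07), in a fit of only these libraries (-0.16), and without library 2 of WT (-0.15) or library 3 of ml2 (-0.14).

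The dark response of ml2 differed from that of WT for 8 genes, all with a negative difference, and for 0 with a positive one in edgeR (0 also at an unadjusted p under 0.05, and 0 in DESeq2). Among all genes 15.6% were called negative and 13.4% positive. Library sizes alone gave 30 negative (26.2% of all genes) and 0 positive (7.75% of all genes), with the median of the 48 genes relative to all genes at -0.16 under both scalings. The median difference was -0.16. Without library 1 of ml2 at day 0 the count of negative calls was 17, without library 2 of that group it was 4, and without library 3 of WT at day 7 it was 5. RPL10C had a difference of -0.56 ± 0.09 (adjusted p = 1.02e-05), RPL28A of -0.38 ± 0.11 (adjusted p = 0.00656) and RPL9B of -0.33 ± 0.09 (adjusted p = 0.00594). RPL9B had 72.1, 61.7 and 62.7 CPM at day 7 and 84.1, 100.3 and 96.5 CPM at day 0 in ml2, and 73.99, 74.6 and 79.4 CPM at day 7 and 82.9, 83.3 and 92.8 CPM at day 0 in WT. The comparisons of both lines use the same WT libraries.

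**Figure D5:**
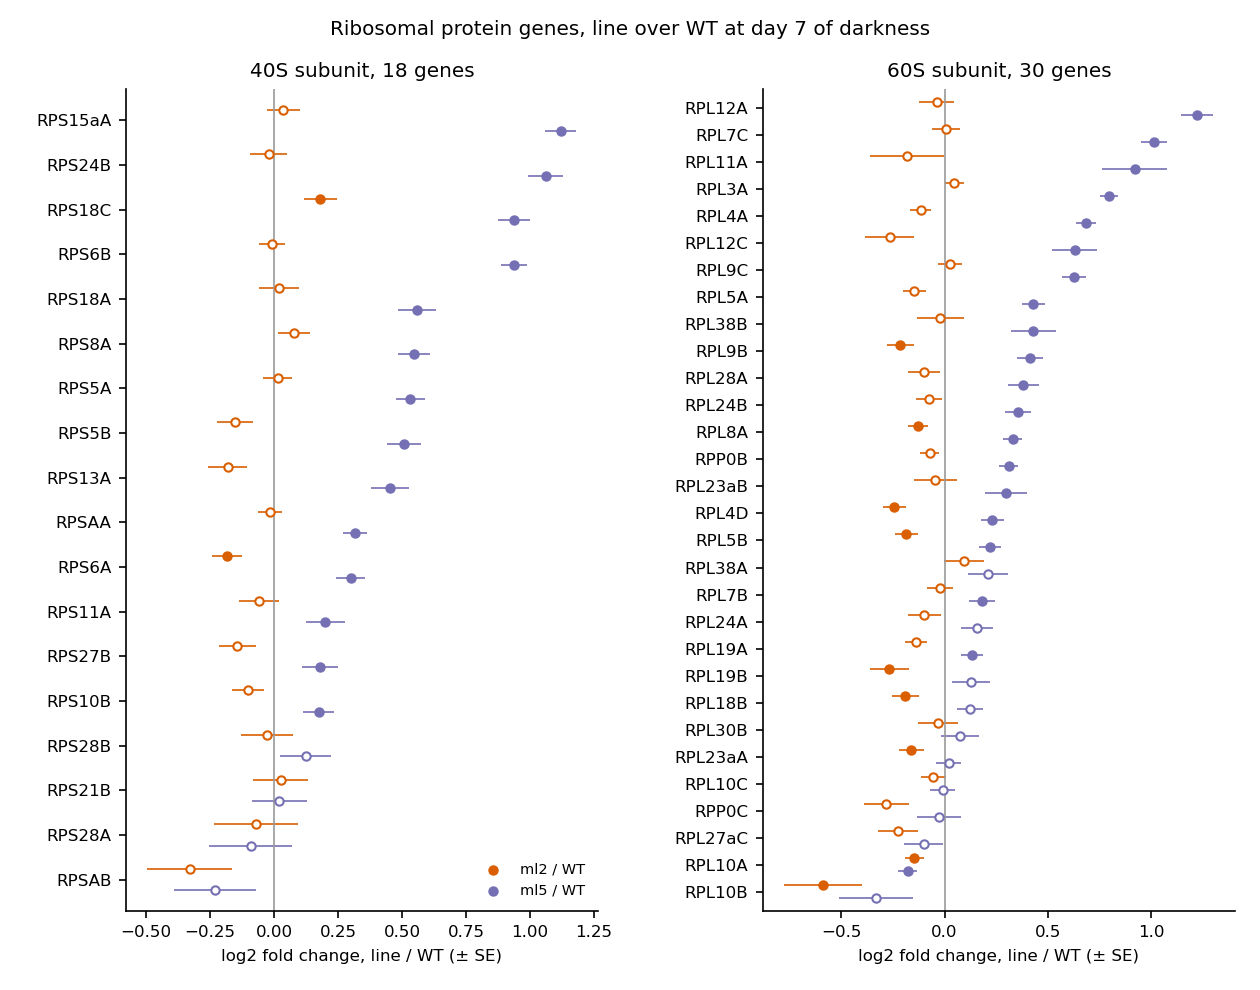
Log2 fold change of each of the 48 genes between a line and WT at day 7 of darkness (x axis, bars ± SE, TMM scaling) for ml2 and ml5, with 40S genes in the left panel and 60S genes in the right panel, filled where adjusted p was under 0.05. Most ml5 points lie right of 0, with RPL12A, RPS15aA, RPS24B and RPL7C above 1, and the ml2 points lie around or left of 0.

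The subunits were compared by the summed counts of their listed genes within each library. The log2 ratio of 40S to 60S counts was -0.85, -0.84 and -0.84 in ml5 and -1.10, -1.11 and -1.07 in WT at day 7, a difference of 0.25 without overlap. At day 0 it was -0.85, -0.81 and -0.87 in ml5 and -0.95, -0.92 and -0.90 in WT, a difference of 0.08, again without overlap. In ml2 it was also above WT without overlap on both days, by 0.08 at day 7 (-0.96, -1.06 and -1.01) and 0.05 at day 0 (-0.89, -0.85 and -0.89). After darkness the ratio changed by -0.17 in WT and -0.13 in ml2, without overlap, and by less than 0.01 in ml5, where the days overlapped. Sums weigh genes by their counts, and the 60S sum holds RPL10A and RPL10C, which rose in darkness. They had 5687 and 3251 counts at day 7 and 2466 and 835 at day 0 in library 1 of WT. The ratio without them was not computed. Median log2 fold changes in darkness were lower for 60S than for 40S genes. They were -0.48 against -0.30 in WT, -0.55 against -0.44 in ml2 and -0.13 against 0.03 in ml5. The summed ratio is therefore not read as a shift of whole subunits. The sums hold only the 48 listed genes, so they are not the composition of the ribosome.

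Levels of different genes were set side by side per kilobase of transcript. The median over the 48 genes was 66.1 CPM per kb in ml5, 48.1 in ml2 and 52.7 in WT at day 7, and 72.3 in ml5, 67.3 in ml2 and 66.3 in WT at day 0. At day 0 in WT the highest levels were those of RPL19A (257 ± 7.79 CPM per kb), RPS8A (188 ± 8.75) and RPL9C (174 ± 9.19), of which the last pair did not differ beyond their spread. The lowest were those of RPSAB (2.52 ± 0.425), RPL10B (4.09 ± 0.699) and RPL11A (4.82 ± 0.25; SD, n = 3 each). At day 7 in WT RPL10A was highest, with 236 ± 5.22 CPM per kb, against 147 ± 1.53 at day 0, and RPL19A followed with 206 ± 5.39.

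Other genes of the translation machinery were counted by list. Of 13 genes for ribosome biogenesis in the nucleolus, 12 were higher after darkness in WT, 10 in ml2 and 13 in ml5, against 42%, 39.6% and 39.7% of all genes, and the others had positive values that did not pass the test. The median was 0.67 in WT, 0.59 in ml2 and 1.24 in ml5. The 3 with the smallest adjusted p in WT were AT5G27120, for a NOP56-like protein of snoRNA particles (1.45 ± 0.09), AT2G40360, for a WD40 repeat protein (0.89 ± 0.07), and FIB1, for fibrillarin, which methylates rRNA (0.68 ± 0.06). AT5G27120 had 35.1, 37.8 and 33.9 CPM at day 7 and 12.3, 12.7 and 14.2 CPM at day 0 in WT. The lowest value of the 13 was 0.25 in WT, 0.17 in ml2 and 0.66 in ml5.

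All 35 genes for plastid ribosomal proteins were lower after darkness in each genotype, against 39.9% of all genes in WT, 40.2% in ml2 and 40.1% in ml5, with a median of -3.18 in WT, -2.75 in ml2 and -2.80 in ml5. AT4G01310, for a ribosomal protein of the L5P family, had 11.1, 8.97 and 10.4 CPM at day 7 and 236, 260.1 and 240.1 CPM at day 0 in WT (-4.60 ± 0.07). The other 2 named by the rule were AT5G24490 (-3.58 ± 0.05), for a 30S protein, and EMB1473 (-3.32 ± 0.05), for a protein of the L13 family. The smallest fall among the 35 in WT was -1.02, while the largest among the 48 cytosolic genes was -1.06. At day 7, 22 of the 35 were higher in ml5 than in WT and 2 were lower, against 19.3% and 24% of all genes.

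Of 23 translation factors and ribosome-associated proteins, 12 were higher and 5 lower after darkness in WT, 11 and 5 in ml2, and 16 and 4 in ml5. The shares of all genes were 42% higher and 39.9% lower in WT, 39.6% and 40.2% in ml2, and 39.7% and 40.1% in ml5. The higher ones included EIF4A-2, an RNA helicase of initiation (1.77 ± 0.06), TCTP (1.60 ± 0.06) and ELF5A-3 (1.47 ± 0.05), and the lower ones PAB8 and PAB4, which bind poly(A) tails (-0.89 ± 0.06 and -0.78 ± 0.06), and the elongation factor gene AT5G60390 (-0.71 ± 0.04). TCTP had 2638, 2728 and 2707 CPM at day 7 and 839, 919 and 911 CPM at day 0 in WT. In ml5 at day 7, 13 of the 23 were higher than in WT and 4 lower, and of the 13 biogenesis genes 9 were higher, against 19.3% of all genes higher and 24% lower. At day 0 in ml5, 5 of the 13 biogenesis genes were lower than in WT (median -0.26), against 18.8% of all genes, and in ml2 at day 7, 6 of them were lower (median -0.33), against 12.4% of all genes.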

How the data were processed

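Total RNA of Arabidopsis leaves was sequenced in 18 libraries (6 groups of 3). Per the submitters' processing notes, the authors used TopHat2 2.0.12, Bowtie2 2.0.6 and the builds TAIR10 and IRGSP-1.0, a rice build whose use is not explained. The deposited values are estimated counts per gene made by the authors, as judged from the file: they are mostly whole, with fractions in 1937 genes. The counting tool is not stated, and the table was used entire, with 0 columns left unused. Counts were rounded to whole numbers. Of 27628 genes, 19493 passed filterByExpr (minimum count 10) and 8135 did not.

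Counts were fitted in edgeR 4.0.16 (R 4.3.3) as 6 group means with TMM scaling and the quasi-likelihood test. The 9 comparisons were adjusted by Benjamini-Hochberg over all genes tested, two-sided, and called at 0.05. Variation between replicates beyond counting error (common BCV) came to 5.63%, with 17.3 prior degrees of freedom. With 3 libraries against 3, an exact permutation test of 1 gene cannot go below 0.1, so every call rests on spread shared across genes. The fitting script was tested on simulated data. CPM use TMM-scaled library sizes. Paralog ratios are log2 of count + 0.5 within a library. Promoters and transcript lengths come from the RefSeq annotation of TAIR10.1.

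The 48 genes and the lists of other genes were chosen with earlier results of these data known. Named are, for each comparison, the 3 largest rises and falls among called genes whose groups did not overlap (differences in dark response were named without regard to overlap), paralog pairs with opposite calls in darkness, and up to 3 genes a list and direction by adjusted p in WT; further members were named after their values were seen, to describe families and groups. Alternatives were RLE size factors, library sizes alone, 2 other filters, a fit of only the libraries compared, DESeq2 1.42.0, a replicate block, each library left out, and for ratios a pseudocount of 1.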

Additional observations from a re-analysis of the deposited data

Results flagged for a closer look

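Differences between the dark response of a line and that of WT were past the threshold among the genes named by the rule, each by a test of the difference itself (edgeR quasi-likelihood, n = 3 libraries in each of 4 groups). In ml5 against WT they were positive for RPS24B (0.82), RPS15aA (0.78) and RPL12A (0.77), and negative for RPS6A (-0.32), RPL10C (-0.3) and RPL10A (-0.2). In ml2 against WT they were negative for RPL10C (-0.56), RPL28A (-0.38) and RPL9B (-0.33). RPL9B had fractional counts in all 18 libraries, so its value is uncertain as that of a single gene. RPL10C had them in 9 libraries and RPL10A in 8. The cause of these differences was not tested.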

How the results depend on the processing

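Library sizes alone turned 10 calls of single genes round, 4 for darkness in WT, 1 in ml2 and 5 in ml5. With library sizes alone, 18 genes were higher and 17 lower after darkness in WT, 8 higher in ml2, 30 higher and 8 lower in ml5, 30 higher and 0 lower in ml2 against WT at day 0, 0 higher and 17 lower at day 7, and 30 negative for the dark response of ml2 minus WT. For ml2 against WT at day 0, RLE factors and DESeq2 gave 5 and 4 higher and 2 lower each, and a fit of only the libraries compared 5 higher and 0 lower; that fit gave 16 lower at day 7. RLE gave 5 negative differences for ml2. For ml5 against WT at day 0, the lower genes were 2 with RLE, without a filter, with only the libraries compared and with DESeq2. Leaving out each library in turn gave 4 to 17 higher and 0 to 2 lower for ml2 at day 0, 0 to 1 higher and 3 to 9 lower at day 7, 19 to 24 higher for ml5 at day 0 and 27 to 32 at day 7, with 1 to 2 lower on either day, 4 to 17 negative differences for ml2, and 14 to 17 positive and 2 to 4 negative ones for ml5. For darkness it gave 31 to 35 lower genes in WT, 35 to 39 in ml2 and 17 to 21 in ml5. The cause of these shifts was not tested. Deviations from the group mean in same-numbered libraries had correlations from -0.191 to 0.122, with no pairs of ml2 with ml5 looked at. Such values cannot show whether these libraries share a batch, a harvest or a plant. A replicate block gave 6 higher and 34 lower in WT darkness and 31 higher for ml5 at day 7. RPSAB, RPL11A, RPS28A and RPL10B had as few as 33 to 47 counts in a library, and their SE was above that of the other members.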
